A study of Mus musculus with 2 samples.

Results

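Macrophages of the embryonic mouse heart were described through 10 marker genes in total RNA sequencing of whole heart. The markers were listed by symbol: the growth factor receptor Csf1r, the complement genes C1qa, C1qb and C1qc, the lysozyme gene Lyz2, the uptake receptors Mrc1 and Timd4, the adhesion receptor Adgre1, and the chemokine receptors Cx3cr1 and Ccr2. All 10 were found, among 42462 gene identifiers that matched the annotation, and 18 of their transcripts were quantified. The series has 2 libraries of a single group, each from pooled hearts of male and female embryos of strain B6NCrl at embryonic day 16.5, with no treatment named. Replicate 2 pooled 41 embryos, and the labels state no number for replicate 1. Both pools carry the same donor identifier and each gave a single library, so pool and library preparation cannot be told apart. The input to each library was 10 ng of RNA above 200 nt. Replicate 2 holds 40360242 estimated counts and replicate 1 holds 37160624. In whole tissue, fewer macrophages and less RNA per macrophage cannot be told apart.

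Heart macrophages of the fetus derive from yolk sac and fetal liver progenitors. They depend on CSF1 receptor signalling, clear dying cells and debris, and are known for roles in coronary and lymphatic vessel growth. C1q, which they secrete, is the recognition molecule of the classical complement pathway and is built from A, B and C chains joined through a collagen-like stalk. In adult mouse heart, TIMD4 marks a self-renewing resident subset, and CCR2 marks macrophages of monocyte origin.

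The tissue label was borne out by heart muscle genes, since Actc1, the cardiac alpha-actin gene, stood at 12222 TPM in replicate 2 and 12648 TPM in replicate 1. TPM is a length-corrected level, as a share of all transcripts in the library. Other tissues were also seen. The 6 lung markers summed to 102 TPM in replicate 2 and 934 TPM in replicate 1, led by the surfactant gene Sftpc at 96.7 and 883 TPM. All 4 of those with at least 10 counts per library were more than 1.5-fold higher in replicate 1, beside 4.67% of all such genes. The 6 thymus markers summed to 62.9 TPM in replicate 2 and 25.8 TPM in replicate 1, led by Ptcra, a T cell precursor receptor chain, at 30.9 and 14.2 TPM. Macrophages of these tissues carry many of the same markers, and their part in the marker levels was not tested.

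The coding sequences of the C1q chains share a collagen-like repeat. The collagen-like stalk is encoded by a glycine codon, GGN, repeated with a pair of other codons between. The longest unbroken run held 16 such repeats in C1qa (codons 62 to 109), 29 in C1qb (codons 31 to 117) and 16 in C1qc (codons 68 to 115). Only the longest unbroken run was sought, so these counts do not give the full length of each stalk. The runs are printed from the GENCODE M21 transcripts, 5′ to 3′ on the coding strand, with the repeating GGN codons in capitals.
C1qa: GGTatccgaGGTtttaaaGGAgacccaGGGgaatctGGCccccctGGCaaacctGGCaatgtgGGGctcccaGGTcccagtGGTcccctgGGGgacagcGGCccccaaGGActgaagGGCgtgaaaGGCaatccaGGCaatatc
C1qb: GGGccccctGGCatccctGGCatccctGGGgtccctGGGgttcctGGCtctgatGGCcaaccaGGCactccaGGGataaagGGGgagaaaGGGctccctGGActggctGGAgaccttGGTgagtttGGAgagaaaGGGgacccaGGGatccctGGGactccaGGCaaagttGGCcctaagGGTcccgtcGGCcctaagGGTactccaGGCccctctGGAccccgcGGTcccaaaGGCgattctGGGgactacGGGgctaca
C1qc: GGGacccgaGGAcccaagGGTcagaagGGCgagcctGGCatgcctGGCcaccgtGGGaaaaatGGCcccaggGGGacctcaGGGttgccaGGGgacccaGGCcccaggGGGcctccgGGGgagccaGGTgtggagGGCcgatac

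The lysozyme genes show where reads of a member could be shared with a relative. Lyz2 lies beside its paralog Lyz1 on chromosome 10, and their coding sequences, 447 bases with the stop codon, were 95.1% identical, with 22 differing bases. Bases 43 to 132, counted from 1 at the start codon, hold 13 of the differences, which are in capitals.
Lyz2: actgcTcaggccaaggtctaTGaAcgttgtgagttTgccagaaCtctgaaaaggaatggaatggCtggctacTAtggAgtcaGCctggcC
Lyz1: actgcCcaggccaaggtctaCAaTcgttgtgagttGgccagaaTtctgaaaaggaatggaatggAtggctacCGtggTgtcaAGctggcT

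The members spanned a 135-fold range of mean level, and 9 of 10 reached 1 TPM in both libraries, which 59.1% of the 21474 annotated protein-coding genes and 33.2% of all matched genes did. All 10 had at least 10 counts in each library, as did 69.0% of the protein-coding genes. Timd4 was the exception, below 1 TPM in both. Lyz2 and the C1q genes carried most of the signal: Lyz2 held 42.1% and the 3 C1q genes 43.5% of the summed mean level of the members, which was 174.5 TPM in replicate 2 and 177.3 TPM in replicate 1. The order by mean TPM was Lyz2, C1qb, C1qa, C1qc, Csf1r, Cx3cr1, Mrc1, Adgre1, Ccr2 and Timd4. Neighbours were said to differ beyond their spread where both libraries gave the same direction, the deposited credibility intervals of the genes were separate in each of them, and the mean log2 ratio of TPM + 0.1 was at least 2 SD from 0. By this rule 8 of the 9 neighbouring pairs differed, and Mrc1 and Adgre1 did not. In all, 8.35% of protein-coding genes had a higher mean level than Lyz2, 35.6% a higher one than Csf1r, and 64.3% a higher one than Timd4.

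**Figure D1:**
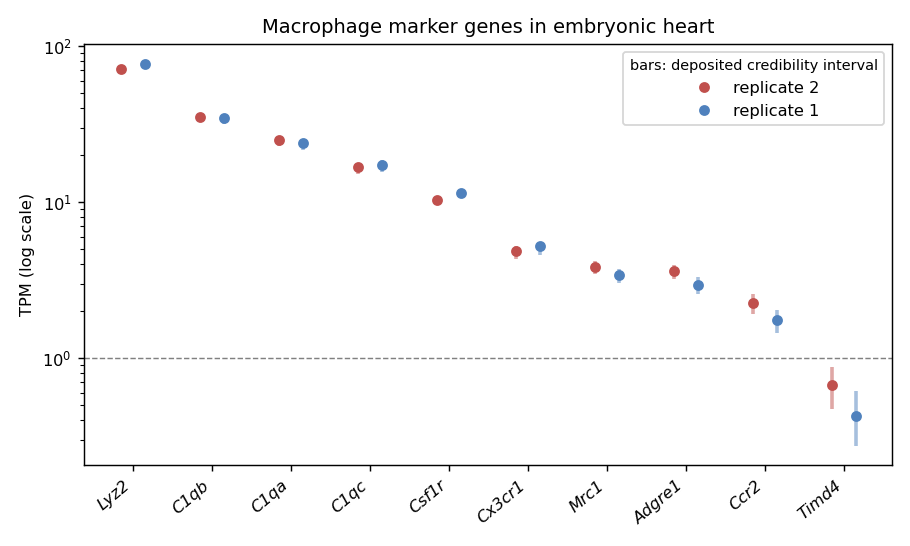
Level of each marker gene in TPM on a log scale, with replicate 2 to the left of replicate 1 and bars for the deposited credibility interval of each library. The order of the genes is the same in both libraries, from Lyz2 above 70 TPM to Timd4 below the dashed line at 1 TPM.

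The C1q genes lie side by side on the minus strand of chromosome 4 (GRCm38, the assembly of mm10), C1qb from 136880129 to 136886187, C1qc from 136889804 to 136893065 and C1qa from 136895917 to 136898803. The whole cluster takes 18675 bases, and 3616 and 2851 bases separate the genes. C1qb, the B chain gene, had 35.4 TPM in replicate 2 and 34.5 TPM in replicate 1. C1qa, the A chain gene, had 25.1 and 23.9 TPM, and C1qc, the C chain gene, had 16.7 and 17.3 TPM in the same order. The libraries thus lay close together, with SDs of 0.643, 0.856 and 0.453 TPM (n = 2), and the chains kept separate levels in both.

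C1qb exceeded C1qa by 1.42-fold (log2 ratio 0.51 ± 0.02, SD, n = 2) and C1qc by 2.05-fold (1.03 ± 0.07). C1qc stood below C1qa at a log2 ratio of -0.53 ± 0.09. Each of these 3 ratios passed the rule for a difference beyond the spread. C1qa and C1qb have 1 transcript each in the tables, and C1qc-201 held 99.7% and 99.1% of the C1qc level in replicates 2 and 1. None of the windows of 50 bases along the main transcripts of the 3 genes occurred in the annotated transcripts of another gene.

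C1q acts with the proteases C1r and C1s, which the C1 inhibitor holds in check. The median of 8 complement partners was 1.98 TPM, and 5 of them were at 1 TPM or more in replicates 2 and 1. Serping1, which encodes the C1 inhibitor, was the highest at 35.4 TPM in replicate 2 and 42.8 TPM in replicate 1. The central component gene C3 (5.07 and 2.97 TPM) and the protease genes C1s1 (2.96 and 1.83 TPM) and C1ra (2.10 and 1.89 TPM) were the next highest. C1rb had 0 counts in both libraries, which allows up to 3 counts in each.

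Csf1r, the receptor tyrosine kinase that macrophages need for survival, had 10.33 TPM in replicate 2 and 11.45 TPM in replicate 1 (10.9 ± 0.792, SD, n = 2). It lies on the plus strand of chromosome 18 from 61100598 to 61132149. Of its 2 quantified transcripts, which have 2931 coding bases each, Csf1r-202 held 87.9% of the level in replicate 2 and 88.0% in replicate 1. The last part of Csf1r-202 lies across from Hmgxb3, a gene of the opposite strand: 873 of its 4701 exon bases are also exon of Hmgxb3, and 17.7% of its windows of 50 bases occur there in reverse. Whether reads were assigned by strand is not given in the sources used here, so reads in that stretch cannot be told apart, and Hmgxb3 had 6.11 and 7.47 TPM in replicates 2 and 1. The ligand genes were both detected. Csf1 had 8.10 TPM in replicate 2 and 7.15 TPM in replicate 1, and Il34 had 1.48 and 1.21 TPM. Csf1 exceeded Il34 by 5.36-fold (log2 ratio 2.42 ± 0.07).

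Lyz2, which encodes the lysozyme of macrophages and other myeloid cells, was the highest member at 71.7 TPM in replicate 2 and 76.3 TPM in replicate 1. It lies on chromosome 10 from 117277331 to 117282321, on the minus strand. Lyz1, known in mouse as the lysozyme of intestinal Paneth cells, had 2.10 and 2.42 TPM. Lyz2 thus exceeded Lyz1 by 31.5-fold (log2 ratio 4.98 ± 0.08). Of the windows of 50 bases along Lyz2, 15.4% occurred in Lyz1, so part of the reads could be shared and the Lyz1 level is the less certain. Mouse lung epithelium also expresses Lyz2. The lung markers summed to 102 TPM in replicate 2 and 934 TPM in replicate 1, and the part of lung cells in the Lyz2 level was not tested.

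The uptake receptors were much lower. Mrc1, the mannose receptor CD206, which takes up glycoproteins and is also found on lymphatic and sinusoidal endothelium, had 3.86 TPM in replicate 2 and 3.43 TPM in replicate 1. Its full-length transcript Mrc1-201 held 90.6% and 93.2%, and the rest lay on a retained-intron transcript without a coding sequence. The related collagen receptor gene Mrc2 had 5.11 TPM in replicate 2 and 8.23 TPM in replicate 1. The log2 ratio of Mrc1 over Mrc2 was -0.82 ± 0.60, less than 2 SD from 0, so no difference beyond the spread was shown, although the intervals of the genes were separate in both libraries.

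Timd4, a receptor for phosphatidylserine on dying cells, had 0.67 TPM in replicate 2 and 0.43 TPM in replicate 1. These levels rest on 41 and 24 counts. Timd4 has 1 transcript in the tables, on chromosome 11 from 46810800 to 46844332. Of other genes for the clearance of dying cells, the median of 9 engulfment genes was 33.6 TPM, and 8 of them were at 1 TPM or more in replicates 2 and 1. Stab2, a scavenger receptor of sinusoidal endothelium, was the lowest at 0.66 and 1.12 TPM. The highest were Gas6 (216 TPM in replicate 2 and 221 TPM in replicate 1), a bridging ligand, and Mfge8 (187 and 232 TPM), which also binds phosphatidylserine. The lipid scavenger receptor Cd36 (135 and 124 TPM) and the receptor Axl (35.0 and 37.0 TPM) followed. These 4 genes are also expressed by vessel, muscle or stromal cells and so do not mark macrophages.

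Adgre1, which encodes the F4/80 antigen of mouse macrophages, had 3.62 TPM in replicate 2 and 2.97 TPM in replicate 1. Csf1r exceeded it by 3.25-fold (log2 ratio 1.70 ± 0.30). Adgre1 has 2 quantified transcripts with 2793 coding bases each, and Adgre1-202 held 93.5% and 94.8% of the level. Its relative Adgre5, which encodes the widely expressed leukocyte antigen CD97, stood at 31.4 and 35.0 TPM.

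Cx3cr1, the fractalkine receptor of resident macrophages and monocytes, had 4.86 TPM in replicate 2 and 5.22 TPM in replicate 1. Its ligand gene Cx3cl1 had 5.97 and 7.61 TPM. Of the 2 Cx3cr1 transcripts, Cx3cr1-202 held 71.5% in replicate 2 and 81.5% in replicate 1. It reaches from 120068283 down to 119901616 on chromosome 9, past several other genes, and has 1062 coding bases, as does Cx3cr1-201.

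Ccr2, the receptor that draws monocytes to tissue, had 2.27 TPM in replicate 2 and 1.75 TPM in replicate 1. Cx3cr1 exceeded it by 2.45-fold (log2 ratio 1.29 ± 0.32). Timd4 stood below Ccr2 at a log2 ratio of -1.71 ± 0.13, which is 0.305 of the Ccr2 level, and the intervals of the genes were separate in both libraries. Of the ligands, Ccl2 had 9.76 TPM in replicate 2 and 7.60 TPM in replicate 1, Ccl7 had 4.80 and 2.88 TPM and Ccl12 had 1.39 and 1.45 TPM.

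Ccr2 was also the member whose transcript shares differed most between the libraries. Ccr2-201 held 36.6% in replicate 2 and 75.1% in replicate 1. Ccr2-202, a single-exon transcript with 1119 coding bases, held 34.7% and 2.32%. In TPM, Ccr2-202 had 0.79 in replicate 2, with a deposited interval of 0.377 to 1.25, and 0.04 in replicate 1, with an upper bound of 0.423, so the intervals overlapped. The 4 Ccr2 transcripts have 1119 coding bases each and together rest on 226.67 and 144.23 counts.

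**Figure D2:**
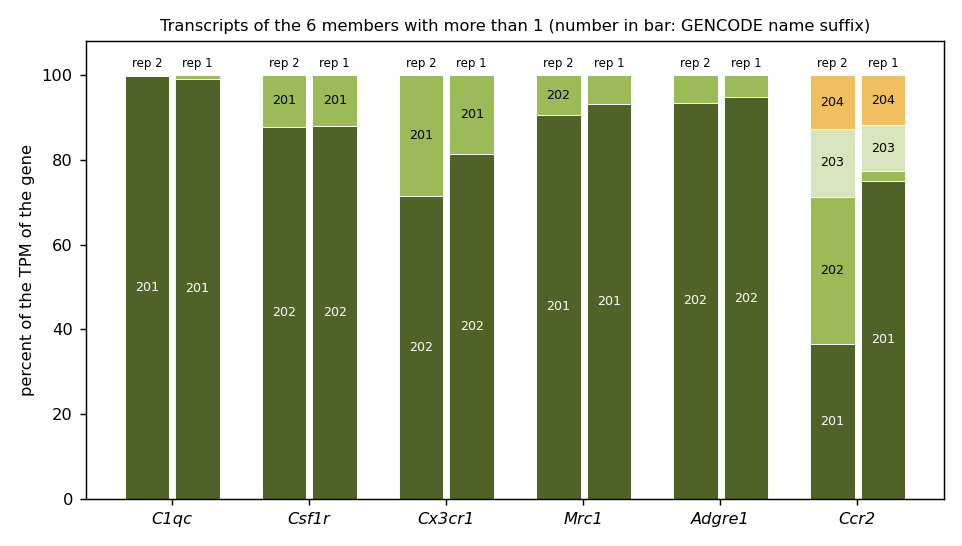
Percent of each gene's TPM on each of its transcripts, for the 6 members with more than 1 transcript, with replicate 2 to the left of replicate 1 and the main transcript at the bottom. The split is nearly the same in both libraries for Csf1r, while Ccr2-201 holds 36.6% in replicate 2 and 75.1% in replicate 1.

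Between the libraries, the high members were close together and the low ones were higher in replicate 2. Ratios of replicate 2 over replicate 1 were taken from count shares scaled by TMM, a trimmed mean of ratios, and compared over 17056 genes. The ratio was 0.969 for Lyz2, 1.06 for C1qb, 1.08 for C1qa, 0.995 for C1qc, 0.931 for Csf1r and 0.978 for Cx3cr1. It was 1.14 for Mrc1, 1.26 for Adgre1, 1.46 for Ccr2 and 1.58 for Timd4. These ratios carry no correction for transcript length, and the transcript shares of Ccr2 differed between the libraries. As log2 ratios these 4 were 0.192, 0.331, 0.55 and 0.657. On TPM + 0.1 they were 0.166, 0.277, 0.357 and 0.539 in the same order. The median log2 ratio of the members was 0.10, with 6 of 10 higher in replicate 2, beside a median of -0.0017 over all 17056 genes, of which 49.6% were higher in replicate 2 (47.6% of the protein-coding ones).

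Only Timd4 was more than 1.5-fold apart, 1 of 10 members, beside 13.4% of the 17056 genes, which all had 10 counts or more per library, and 10.0% of the protein-coding ones. Among protein-coding genes, 5.62% were more than 1.5-fold higher in replicate 2 and 4.39% more than 1.5-fold higher in replicate 1. On TPM + 0.1 no member passed 1.5-fold. The deposited credibility intervals of the libraries overlapped for each of the 10 members, and they did not overlap for 26.7% of all genes and 27.3% of the protein-coding ones. With 1 library per pool these ratios have no replicate of their own and no test.

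Other macrophage genes were measured beside the members. All 16 genes of a pan-macrophage list had at least 10 counts in each library and 13 reached 1 TPM in both. They summed to 278 TPM in replicate 2 and 251 TPM in replicate 1, with a median log2 ratio of 0.07. The highest were the lysosomal protease gene Lgmn (85.4 and 88.1 TPM), which other cells also express, Laptm5 (48.1 and 31.1 TPM), a lysosomal protein of blood cells, and the immune adaptors Fcer1g (28.9 and 28.8 TPM) and Tyrobp (25.7 and 29.0 TPM). Ptprc, the CD45 antigen of all leukocytes, had 21.7 TPM in replicate 2 and 8.22 TPM in replicate 1, a ratio of 2.66. With Laptm5 (ratio 1.68), Fcgr1 (1.59) and Aif1 (1.52) it made up the 4 of 16 genes more than 1.5-fold higher in replicate 2, beside 8.7% of all genes. Aif1 had 8.68 and 5.06 TPM and Fcgr1 had 1.30 and 0.84 TPM. Cd68 had 9.83 and 8.43 TPM, and the pore-forming gene Mpeg1 had 0.33 and 0.32 TPM.

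The 6 genes of a resident macrophage list summed to 96.2 TPM in replicate 2 and 97.1 TPM in replicate 1, with 5 at 1 TPM in both. The highest were Cbr2 (48.1 and 46.3 TPM), Pf4 (27.4 and 27.1 TPM), Lyve1 (10.6 and 12.1 TPM) and F13a1 (8.54 and 9.73 TPM). Cbr2 is also known from mouse lung epithelium, Pf4 from megakaryocytes and Lyve1 from lymphatic endothelium. Of the microglia list, 2 of 5 genes reached 1 TPM in both, led by Tmem119 (17.8 and 18.8 TPM), which bone-forming and stromal cells also express, and the purinergic receptor gene P2ry12 had 0.78 and 0.58 TPM. Of 5 genes of macrophages of other organs, 1 reached 1 TPM in both libraries, Gata6 (36.1 and 40.4 TPM), which heart cells also express. The others were Clec4f of liver macrophages (0.16 and 0.73 TPM), Vsig4 (0.30 and 0.31 TPM), Siglecf (0.23 and 0.21 TPM) and Marco (0.07 and 0.08 TPM, from 4 counts in each library).

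Several lists of other leukocytes were higher in replicate 2. The monocyte and neutrophil list summed to 105 TPM in replicate 2 and 58.6 TPM in replicate 1, and all 8 of its genes with enough counts were higher in replicate 2, 6 of them by more than 1.5-fold, beside 8.7% of all genes. They included Plac8 (35.5 and 15.4 TPM), S100a8 (23.4 and 17.9 TPM) and S100a9 (13.5 and 9.58 TPM). The antigen presentation and dendritic list summed to 420 TPM in replicate 2 and 206 TPM in replicate 1, and 4 of 7 genes passed 1.5-fold. These were the MHC class II genes Cd74, H2-Ab1, H2-Aa and H2-Eb1, at ratios of 2.17, 2.18, 2.07 and 2.39. The rest of the 7 did not pass: Flt3 stood at 1.43, Ciita at 1.33 and Zbtb46, lower in replicate 2, at 0.918. The T cell genes Cd3g (78.5 and 31.0 TPM) and Cd3e (48.7 and 16.9 TPM) and the thymus list, at a ratio of 2.44 by its sums, were higher in the same library. In the whole lymphocyte and mast cell list, 3 of 8 genes passed 1.5-fold and the median log2 ratio was 0.13. Its mast cell genes Cpa3 (10.2 and 9.23 TPM) and Tpsb2 (9.24 and 9.11 TPM) stood at ratios of 1.14 and 1.05. Ccr2, Timd4 and Adgre1 moved in the direction of these lists. Mrc1, C1qa and C1qb moved in the same direction by less, at ratios of 1.14, 1.08 and 1.06. The part of these lists in the ratios of the members was not tested. Lyz2, Csf1r, C1qc and Cx3cr1 stood at ratios from 0.931 to 0.995 in the same libraries.

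**Figure D3:**
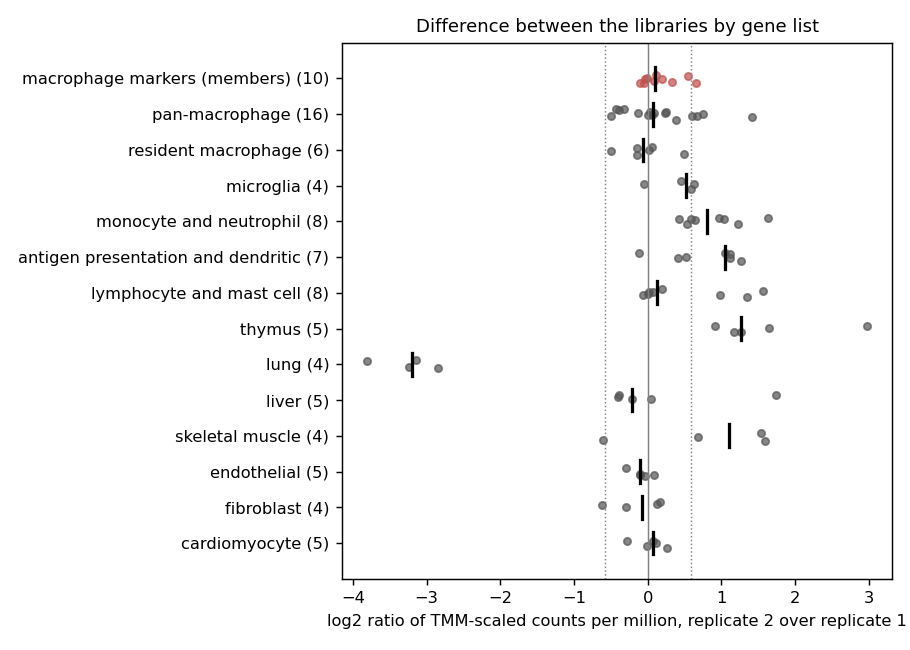
Log2 ratio of replicate 2 over replicate 1 by gene list, for genes at 10 counts or more per library, with the number of genes in brackets, a bar at each median and dotted lines at 1.5-fold. The macrophage markers have a median of 0.10 and reach 0.657 for Timd4. The lung list lies near -3.19, and the thymus list has a median of 1.27.

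**Figure D4:**
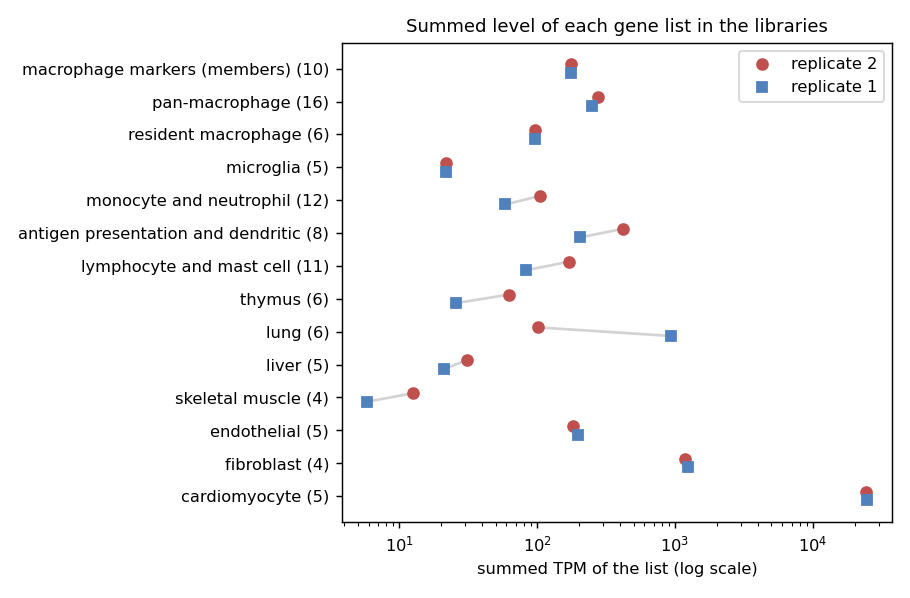
Summed TPM of each list on a log scale, with replicate 2 as circles above replicate 1 as squares and the number of measured genes in brackets. The macrophage markers sum to 174.5 and 177.3 TPM, while the lung list sums to 102 and 934 TPM.

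Transcription factors of the myeloid lineage were present, many of them shared with other cells. The median of 11 genes was 3.79 TPM, and 8 of them were at 1 TPM or more in replicates 2 and 1. The highest were Id3 (173 TPM in replicate 2 and 219 TPM in replicate 1), Zeb2 (15.6 and 19.8 TPM), Irf8 (19.3 and 15.5 TPM) and Runx1 (8.48 and 4.28 TPM). Id3 and Zeb2 also act in vessel and stromal cells, Irf8 is a factor of macrophages and dendritic cells, and Runx1 a factor of blood cell formation and of the thymus. Spi1, which encodes the macrophage factor PU.1 and was named after its value was seen, had 2.87 TPM in replicate 2 and 4.31 TPM in replicate 1.

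Promoter windows of 300 bases, 250 before and 50 after the start, were taken from RefSeq (GRCm38.p6) for 7 of the 10 members. Windows of C1qa, Csf1r and Adgre1 were not searched, so the motif counts say nothing of these genes. The 7 windows were searched on both strands for GAGGAA, the purine-rich box that ETS factors such as PU.1 bind. The box is held by 28.3% of 32851 promoter windows. It occurred in 3 of 7: Mrc1, C1qb and C1qc. The AP-1 motif TGANTCA and the interferon-stimulated response element occurred in none of the 7, and the composite ETS and IRF element, which can overlap the others, in Timd4 alone. These motifs occurred in 7.81%, 3.44% and 2.72% of all windows. The windows of C1qb and C1qc are shown because these genes lie side by side in the C1q cluster. They are chr4:136886151-136886450 for C1qb and chr4:136892865-136893164 for C1qc, both on the minus strand and printed 5′ to 3′ along the gene, with the box or its reverse complement in capitals.
C1qb: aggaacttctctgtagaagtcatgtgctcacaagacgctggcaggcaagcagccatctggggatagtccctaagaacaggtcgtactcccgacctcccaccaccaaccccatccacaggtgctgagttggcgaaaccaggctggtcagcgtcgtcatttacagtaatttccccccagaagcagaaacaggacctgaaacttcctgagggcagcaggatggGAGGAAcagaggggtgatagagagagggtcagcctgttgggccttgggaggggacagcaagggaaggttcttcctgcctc
C1qc: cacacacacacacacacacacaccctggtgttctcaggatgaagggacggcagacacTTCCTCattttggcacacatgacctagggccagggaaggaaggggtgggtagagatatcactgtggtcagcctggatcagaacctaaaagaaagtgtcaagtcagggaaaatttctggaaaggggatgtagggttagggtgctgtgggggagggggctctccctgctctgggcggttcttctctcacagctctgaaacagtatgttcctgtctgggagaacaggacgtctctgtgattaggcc
The box lay 30 bases before the RefSeq start on the coding strand in C1qb and 193 bases before it on the other strand in C1qc. The quantified transcripts start elsewhere, C1qb-201 at 136886187 and C1qc-201 at 136893065, so distances from those starts differ. The start of C1qc-201 lies nearer the box than the RefSeq start does. A match describes the letters of the window only.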

How the data were processed

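The values start from tables deposited by the authors, with reads quantified on mm10 and annotation M4 per the submitters' processing notes, and 1 library per table. Per the file headers, the deposited values are estimated counts, not normalized, and TPM over all rows; effective length is 99 bases below length. The percent of a gene's TPM on each transcript was made by the authors and is used as deposited. The level of the deposited credibility intervals is not stated. No source used here gives the aligner, the quantification tool or the strand assignment. Identifiers were matched without version to GENCODE M21, 42462 of 43346. Rows of spike-ins took 3.41% (replicate 2) and 1.62% (replicate 1) of all counts and are part of the TPM total.

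Estimated counts were rounded to whole numbers, kept at 10 or more in each library, scaled by TMM in edgeR 4.0.16 and given 0.5 counts before log2 ratios, a calculation tested on simulated data. DESeq2 1.42.0 size factors were an alternative. No test was made, since the smallest p of an exact sign-flip test on 2 libraries is 0.5. The floor of 3 counts covers counting error only, and the spread between libraries may be technical. Windows of 50 bases of GENCODE M21 transcripts were used to find relatives with shared sequence, in place of the protein identity first planned.

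The members and the 20 other gene lists were chosen with earlier results of these data known. Named genes are the members, up to 4 genes per list with the highest mean TPM, those at 0 counts in both libraries, genes of 10 set pairs, and defining macrophage markers. Hmgxb3, Marco and Spi1 were named after their values were seen. Stab2, Tpsb2, Flt3, Ciita and Zbtb46 also fall outside this rule. Some genes that this rule names are not reported here.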

Additional observations from a re-analysis of the deposited data

How the results depend on the processing

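The number of members at 1 TPM in both libraries stayed at 9 with the other TPM values, and was 9 in either library alone (without replicate 1 or without replicate 2). With a limit of 0.5 TPM it was also 9. With 10 counts in each library as the limit in place of TPM, it was 10. The count of members more than 1.5-fold apart was 0 on TPM + 0.1 and 1 under the other 4 settings. The median log2 ratio of the members ranged from 0.05 to 0.10. The count of neighbouring members that differed was 8 in each of 5 alternatives, but not always with the same pairs or order. From counts without length correction the log2 ratio of C1qc over Csf1r was -1.38 and that of Cx3cr1 over Mrc1 was -0.18, both turned round. The ratio of Cx3cr1 over Mrc1 was then less than 2 SD from 0, so that pair no longer differed beyond its spread. The ratio of Mrc1 over Adgre1 was 0.82 from counts, and that pair did differ. For the 10 set gene pairs and the shares of main transcripts, 15 alternative values moved by more than 1 SD, 63 did not and none changed direction. The 63 include the values from either library alone. With 2 libraries such a value cannot lie more than 1 SD from the mean, so these say nothing of stability. The log2 ratio of Timd4 over Ccr2 was -2.51 from counts without length correction and -0.96 with 1 TPM added. No paired analysis was possible because there is a single group. Depth limits Timd4, with 24 counts in replicate 1, and minor transcripts, such as C1qc-202 with 1.11 and 3.46 counts in replicates 2 and 1.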
